A study of Mus musculus with 14 samples.

Results

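The nuclear-encoded subunits of the mitochondrial respiratory chain were followed in polyA RNA-seq of wild-type C57BL/6 mouse embryos. A gene was a member by its symbol alone: Nduf followed by a, b, c, s or v and a number, Sdha to Sdhd, any symbol starting with Uqcr or Atp5, and Cox followed by a digit from 4 to 8 and a letter from a to c. Symbols ending in -ps were left out. Of 53465 genes in the count table, 81 were members, 35 of complex I, 4 of complex II, 8 of complex III, 18 of complex IV and 16 of complex V. Ndufa4 and its paralogue Ndufa4l2 were counted with complex IV, where the Ndufa4 protein is found. The rule misses Cox4i1, Cox4i2, Cyc1 and Ndufab1, which are also nuclear-encoded subunits.

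The respiratory chain passes electrons from NADH and succinate to oxygen and pumps protons across the inner mitochondrial membrane. Complex I oxidises NADH, complex II oxidises succinate, complex III hands electrons to cytochrome c, complex IV reduces oxygen, and complex V uses the proton gradient to make ATP. Most subunits are encoded in the nucleus, a few core subunits by the mitochondrial chromosome, and several complex IV subunits exist as a widely expressed and a tissue-restricted isoform. Cox6a2, Cox7a1 and Cox8b are known as the heart and skeletal muscle forms, Cox6b2 as the testis form, and Ndufa4l2 as a form induced by hypoxia and found in pericytes.

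The 14 libraries fall into 11 groups. The aorta-gonad-mesonephros region (AGM), where blood stem cells first arise, comes from E9.5, from E10.5 and from E11.5, in 2 rounds, so 6 libraries are AGM. At E9.5 the tissue taken was the caudal part of the embryo, in which the AGM later forms. Dorsal skin was taken at 4 ages (E9.5 and E10.5, then E12.5 and E14.5) in 2 sequencing projects, with 1 library per age titled ES and 1 titled E. All embryos were wild type, and the labels do not say which libraries are from different embryos, so a p-value here reflects the spread among these libraries and may be technical. Second-round AGM libraries were placed at an age by their sample number, an assumption. Total counts were 21527400 to 29534551 in AGM, 6770338 to 15440012 in skin ES and 19929352 to 24003912 in skin E.

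The skin ES libraries stood apart from the skin E libraries and are described separately throughout. The correlation of log2 levels between the libraries of the 2 titles at a given age was only 0.625 to 0.716, against 0.993 to 0.995 between the AGM rounds of an age. In skin E the 10 basal keratinocyte markers summed to 336, 329, 562 and 5100 CPM (counts scaled to the library total) at the 4 ages from youngest to oldest, with Krt14 at 0.652, 0.484, 34.3 and 459 CPM. In skin ES the same list summed to 649 to 805 CPM. Skin ES held 22.7 to 44.2 CPM of 8 endothelial markers, against 341 to 654 CPM in skin E, and 298 to 416 CPM of 12 cell cycle genes, against 2668 to 5219 CPM in skin E. Red blood cell genes were at most 0.453 CPM in skin ES. The keratins Krt14 and Krt5 were at most 0.142 and 1.62 CPM in skin ES, whatever the age, while AGM libraries held 380 to 469 CPM of the endothelial list. In such bulk tissue, fewer cells of a type and less RNA per cell cannot be told apart.

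Sequence is shown first for 2 sets of members described below. Cox7c, a small structural subunit of complex IV, is the clearest of several members whose coding sequence recurs in other genes of the mouse genome. Its 189 coding bases (GENCODE M21, GRCm38, gene at chr13:86044816-86046904, minus strand) are set beside the processed pseudogene Gm10012 (chr17:25901856-25902227, plus strand). Capitals mark the 2 bases at which the pseudogene differs from Cox7c.
Cox7c: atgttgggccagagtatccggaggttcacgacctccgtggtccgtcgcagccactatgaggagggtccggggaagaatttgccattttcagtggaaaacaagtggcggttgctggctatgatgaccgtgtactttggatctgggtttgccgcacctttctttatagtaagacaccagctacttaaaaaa
Gm10012: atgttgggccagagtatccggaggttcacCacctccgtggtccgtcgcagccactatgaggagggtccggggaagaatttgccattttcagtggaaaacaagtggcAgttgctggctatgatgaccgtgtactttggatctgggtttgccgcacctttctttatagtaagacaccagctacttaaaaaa
A further processed pseudogene, Gm12338 (chr11:75599763-75599954, minus strand), holds all 189 coding bases without a difference. A read from within the coding sequence can therefore match several places, and Cox7c and members like it are uncertain wherever they differ between library sets.

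The second set is the start regions of a muscle isoform and of widely expressed isoforms. Each line gives the 250 bases before the start site from RefSeq (GRCm38.p6), for Cox8b (chr7:140900447-140900696, minus strand), its widely expressed paralogue Cox8a (chr19:7217617-7217866, minus strand) and Cox6a1 (chr5:115348959-115349208, minus strand), the widely expressed paralogue of Cox6a2. Cox6a2 itself was not among the members with a start region there, so its own is not shown. Capitals mark CAGCTG, an E-box of the kind bound by myogenic factors, in Cox8b and Cox8a, and the NRF1 motif in Cox6a1.
Cox8b: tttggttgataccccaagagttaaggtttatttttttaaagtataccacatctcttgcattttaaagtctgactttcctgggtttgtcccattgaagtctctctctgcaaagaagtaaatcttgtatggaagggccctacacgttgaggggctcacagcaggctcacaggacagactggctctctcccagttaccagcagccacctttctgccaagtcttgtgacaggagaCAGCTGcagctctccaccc
Cox8a: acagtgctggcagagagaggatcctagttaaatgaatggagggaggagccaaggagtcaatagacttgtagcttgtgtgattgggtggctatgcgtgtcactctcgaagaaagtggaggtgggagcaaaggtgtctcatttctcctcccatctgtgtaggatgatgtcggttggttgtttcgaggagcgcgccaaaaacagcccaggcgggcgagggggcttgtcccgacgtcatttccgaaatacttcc
Cox6a1: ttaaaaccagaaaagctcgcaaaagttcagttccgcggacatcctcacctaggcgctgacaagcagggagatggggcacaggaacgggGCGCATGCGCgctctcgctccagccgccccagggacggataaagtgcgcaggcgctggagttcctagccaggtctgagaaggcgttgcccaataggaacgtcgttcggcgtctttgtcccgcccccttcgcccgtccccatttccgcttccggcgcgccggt
Cox8b carried 1 CAGCTG and Cox8a carried none. Among the 66 members found in the RefSeq table, 9.09% held CAGCTG, against 14.7% of all 27025 genes there. The NRF1 motif was in 6.06% of the members (Atp5g2, Atp5k, Cox6a1 and Ndufa11), against 0.877% of all genes. The ETS motif CCGGAAG, read on both strands like the others, was in 18.2% of the members and 7.83% of all genes. The motif of NRF1 is its own reverse complement, as is CAGCTG. A match describes letters only.

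The members as a group took a similar share of counts across AGM and skin E. They took 0.780% to 0.842% of all counts in AGM, 0.532% to 0.611% in skin ES and 0.670% to 0.791% in skin E, where the lowest value was that of E12.5. Of the 77 members with a mean of at least 1 CPM, the median fold from the lowest to the highest of the 10 AGM and skin E libraries was 1.497, and for 59 it was under 2. That fold was not computed for all genes, so it is not read as a trait of the members. The 5 members that ranged over 4-fold or more without a library at 0 were Uqcrb, Cox7c, Atp5g1, Atp5g2 and Ndufa4l2. Complex V made up the largest sum, and Atp5a1 and Atp5b, the alpha and beta subunits of its catalytic head, alone held 26.2% to 31.5% of the members' counts.

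Skin ES had the lowest summed levels in 4 of 5 complexes. Complex I subunits summed to 1808 to 2033 CPM in AGM, 1244 to 1488 CPM in skin ES and 1791 to 1986 CPM in skin E. Complex V subunits summed to 3645 to 3918 CPM in AGM, 2429 to 2752 CPM in skin ES and 3055 to 3776 CPM in skin E. The ES range lies wholly below the others for both, and likewise for complexes II and III. Complex IV was the exception, at 913 to 1087 CPM in AGM, 670 to 863 CPM in skin ES and 677 to 859 CPM in skin E, so that the AGM range lies above both skin ranges, which overlap. That order depended on scaling: with TMM, complex IV was 890 to 1086 CPM in AGM, 758 to 995 CPM in skin ES and 602 to 844 CPM in skin E, so that AGM and skin ES overlapped. TMM likewise brought the skin ES sum of all members to 6013 to 7042 CPM, within the 5955 to 7771 CPM of skin E, and the ranges of skin ES and skin E then overlapped for each complex.

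**Figure D1:**
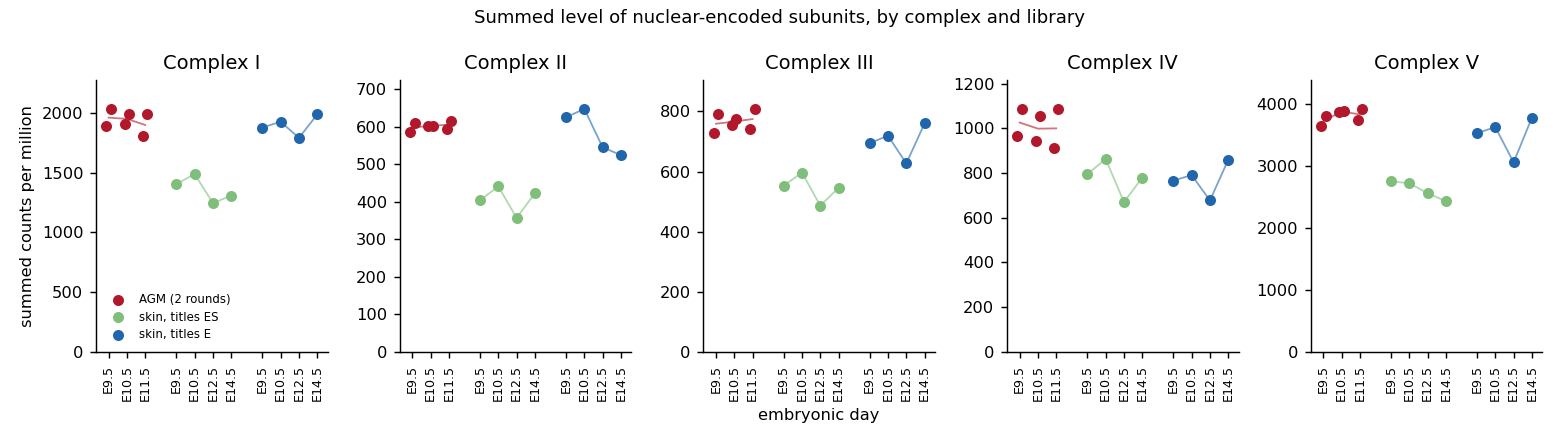
Summed CPM of the members of each complex (vertical axes) in each library, by embryonic day (horizontal axes), for AGM (2 rounds as separate points), skin titled ES and skin titled E. Points are single libraries and lines join the means of an age; skin ES lies below the others for complexes I, II, III and V, and AGM lies above both skin sets for complex IV, where with TMM scaling AGM and skin ES overlap.

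Per length, levels spread over a wide range within each complex. On the RPKM scale, which divides CPM by exon length in kilobases, the mean over the 10 AGM and skin E libraries ran from 83.9 for Ndufa2 down to 2.24 for Ndufb4 in complex I, 2 accessory subunits. In complex II the membrane anchors Sdhd and Sdhc were at 92.3 and 32.6 RPKM. Uqcrh, the hinge subunit, had 86.4 RPKM and Uqcrq 25.7 RPKM in complex III. Cox8a led complex IV at 164 RPKM while the testis form Cox8c had no count in any library. Atp5a1 had 324 RPKM and Atp5l, a subunit of the membrane part, 0.756 RPKM in complex V. All coding stretches of Atp5l and of Ndufb4 also occur in other genes, so their levels are uncertain. The exon length used joins the exons of all transcripts of a gene. For Atp5l it was 6443 bases, against 544 in the transcript with the longest coding part. For Ndufb4 these lengths were 1916 and 971 bases. A longer divisor gives a lower RPKM, and its part in the spread was not tested.

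The first question was how the members changed with the labelled age in the AGM. From E9.5 to E11.5 the changes were small, and 74 of 77 tested members moved by less than 0.5 on the log2 scale. In edgeR's quasi-likelihood test on the 6 AGM libraries, with Benjamini-Hochberg adjustment over 17613 genes and calls at an adjusted p under 0.05, 10 members were called at E11.5 over E9.5, 6 higher and 4 lower. That is 12.99% of the members tested, against 45.2% of all genes. The members' median log2 change was 0.10, and that of all genes was -0.0039. With the round as a block, 36 members were called, 29 higher and 7 lower, against 61.7% of all genes. With library totals alone in place of TMM, where the median of all genes is -0.15, the split was 2 higher and 6 lower of 8, so the direction of small changes depends on scaling.

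Ndufa4l2 had the largest change. Its levels were 8.97 and 7.93 CPM at E9.5, 8.61 and 7.79 CPM at E10.5 and 1.17 and 1.16 CPM at E11.5, so that both E11.5 libraries lie far below the other 4. It fell by 2.71 ± 0.20 on the log2 scale at E11.5 over E9.5 (edgeR adjusted p = 4.26e-05). Its share of the summed Ndufa4 and Ndufa4l2 RPKM was 7.06% to 9.78% at E9.5 and E10.5 and 1.15% to 1.62% at E11.5. Of 8 pericyte markers 7 were tested and all 7 were called lower, with a sum of 303 and 244 CPM at E11.5, against 761 and 571 CPM at E9.5; Kcnj8 was at most 0.046 CPM at E11.5 and Higd1b was near 0 throughout. Other lists fell over the same interval, with 12 of 12 macrophage markers, 11 of 14 striated muscle markers, 8 of 10 neuron markers and 6 of 10 dermal fibroblast markers called lower (1 of the last was higher), at median log2 changes of -5.80, -1.38, -1.39 and -1.51. The part of these lists in the result was not tested. The macrophage list summed to 180 and 162 CPM at E9.5 and to 7.33 and 10.2 CPM at E11.5. In skin E the same list rose with age, from 7.53 CPM at E9.5 to 356 CPM at E14.5. AGM ages are those of the labels, and their order was not tested.

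Of the other 9 members called, 6 were higher at E11.5. Cox5a, which binds next to the catalytic core of complex IV, had 78.0 and 90.7 CPM at E11.5, against 58.6 and 67.9 CPM at E9.5, and rose by 0.56 ± 0.13 on the log2 scale (edgeR adjusted p = 0.0096). The E11.5 libraries were both above the E9.5 libraries. Atp5g1, one of the genes for the c-ring of complex V, had 66.0 and 66.6 CPM at E11.5, against 55.2 and 52.2 CPM at E9.5, a log2 change of 0.45 ± 0.09 (edgeR adjusted p = 0.0052). Atp5b, Sdhd, Cox5b and Uqcrfs1, the Rieske iron-sulphur protein of complex III, were also called higher, by 0.36, 0.33, 0.30 and 0.29 on the log2 scale. For Sdhd and Cox5b the CPM of the ages overlapped. The iron-sulphur subunit Ndufs8 had 34.4 and 34.3 CPM at E11.5, against 49.1 and 48.7 CPM at E9.5, and fell by 0.36 on the log2 scale. The accessory subunit Ndufa3 and the restricted isoform Cox6b2 were the other 2 called lower, by log2 changes of -0.30 and -0.76. Leaving out any 1 of the 6 AGM libraries gave 2 to 6 calls.

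Between neighbouring AGM ages fewer members were called. At E11.5 over E10.5 they were Atp5g1, at 0.29 ± 0.09 on the log2 scale (edgeR adjusted p = 0.048), and Ndufa4l2, at -2.72 ± 0.20, against 27.2% of all genes. The block raised that to 21, 16 higher and 5 lower, against 48.2% of all genes. Atp5g1 was not called when any 1 of the 6 AGM libraries was left out, and with library totals alone 2 were called, both lower. At E10.5 over E9.5 edgeR called none, with 1 member at an unadjusted p under 0.05 and none called by DESeq2, while 2.59% of all genes were called. With the round as a block 5 were called against 24.1% of all genes, namely Cox5a, Atp5b, Sdhd and Ndufs1 higher and Cox7a1 lower. Cox7a1 stayed below 1 CPM in every library, and its log2 change was -1.32 ± 0.41.

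Genes of neighbouring pathways are given for the AGM ages too. Of all 17613 genes tested there, 3720 were called higher and 4233 lower at E11.5 over E9.5. At E11.5 over E9.5, 12 of 15 glycolysis genes rose and none fell, with a median log2 change of 1.23. Of 15 citric acid cycle genes 9 rose, with a median of 0.34, and of 42 assembly factors 13 rose and 1 fell, with a median of 0.24. Among 13 regulators of mitochondrial biogenesis, Pprc1, Tfam, Twnk, Polg and Nrf1 rose and Ppargc1a, the PGC-1alpha coactivator, fell by 2.17 on the log2 scale. None of the 13 mitochondrially encoded subunits was called in the AGM age comparisons. Cell cycle genes also rose, 10 of 12, and summed to 5168 and 5303 CPM at E11.5, against 3829 and 4104 CPM at E9.5; their part in these results was not tested.

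In skin E the median member was lower at E12.5 than at E10.5 and higher at E14.5 than at E12.5. Each skin age is 1 library in this test, which assumes that it varies like the AGM pairs fitted with it (19945 genes, 79 members tested). The block had no round to correct in skin, so it moved no skin level. It only lowered the fitted spread (biological coefficient of variation) taken from the AGM pairs, from 12.1% to 6.30%. Block counts between skin ages rest on that lower spread, which was not measured in skin. Between E10.5 and E9.5 edgeR called no member, with 4 at an unadjusted p under 0.05 and none called by DESeq2, against 6.43% of all genes. The block gave 4 calls, Atp5e, Cox6a1 and Sdhc higher and Atp5l lower, against 19.4% of all genes.

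At E12.5 over E10.5 the members' median log2 change was -0.20, that of all genes was 0, and 14 of 79 members had a positive change. Calls were few, with 3 members higher and 5 lower, against 30.1% of all genes. Cox7c had 3.96 CPM at E12.5, against 7.31 CPM at E10.5, a log2 change of -0.93 ± 0.20 (edgeR adjusted p = 0.010). Cox5a had 47.8 CPM at E12.5, against 71.9 CPM at E10.5, a log2 change of -0.64 ± 0.19 (edgeR adjusted p = 0.036). The accessory subunit Ndufa12, Atp5b and Uqcrfs1 were the other members called lower, by log2 changes of -0.52, -0.48 and -0.45. Atp5g1 was higher, at 8.58 CPM at E12.5 against 5.77 CPM at E10.5. The block raised the calls to 37, 6 higher and 31 lower, against 48.0% of all genes. Without any 1 of the E10.5 or E11.5 AGM libraries 5 were called, and with library totals alone 3 were higher and 3 lower. In skin ES the median log2 CPM change over the same interval was -0.35, over 74 members of at least 1 CPM in all skin libraries, against -0.15 in skin E. Over the same skin E interval 10 of 12 cell cycle genes fell, 12 of 15 glycolysis genes fell and 2 rose, and 6 of 10 neuron markers fell, while 11 of 12 macrophage and 10 of 10 dermal fibroblast markers rose. Their part in the members' changes was not tested.

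From E12.5 to E14.5 most skin E members were higher. Changes were positive for 71 of 79 members, with a median of 0.34, against 0.019 for all genes, and 15 were called, all higher. Of all genes 27.5% were called and 14.3% were called higher. By complex, 4 of 35 members of complex I, none of 4 of complex II, 2 of 8 of complex III, 5 of 16 of complex IV and 4 of 16 of complex V were called. With the block the members' median log2 change was the same, at 0.34. With library totals alone, where the median of all genes is -0.098, 8 were called, all higher. Over the same interval 12 of 15 glycolysis genes and 10 of 10 basal keratinocyte markers rose, 8 of 10 dermal fibroblast markers rose and 2 fell, and 10 of 10 neuron markers fell. Their part in the members' changes was not tested.

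**Figure D2:**
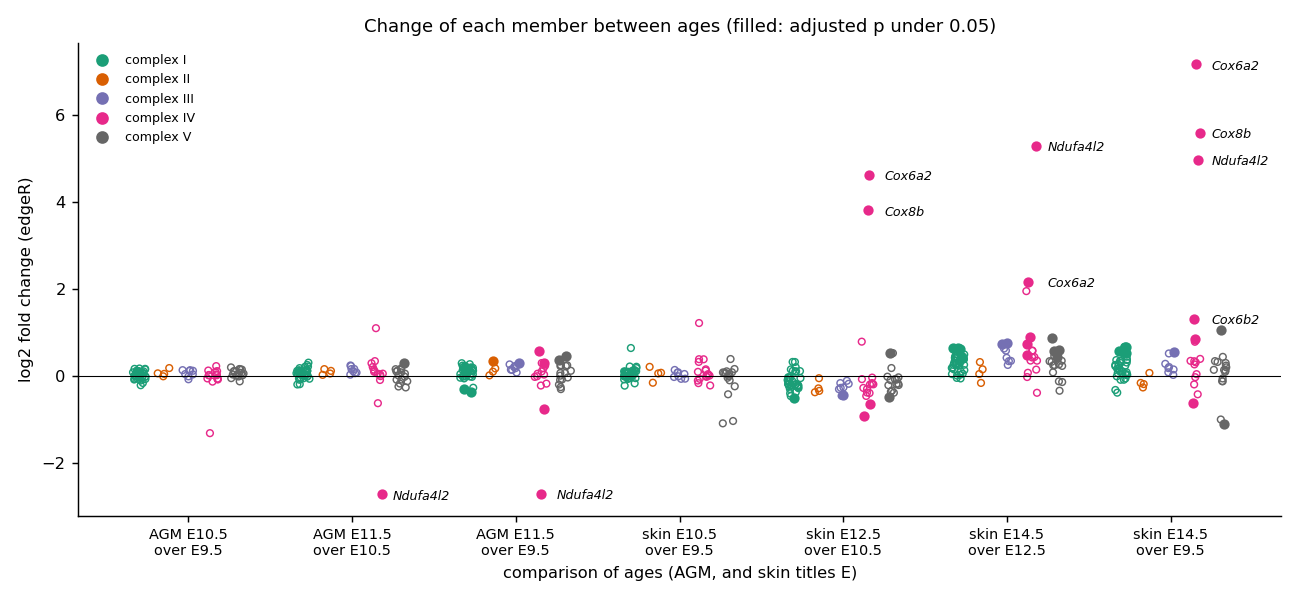
Log2 fold change of each tested member (vertical axis) in each comparison of ages (horizontal axis), coloured by complex, with filled points for an edgeR adjusted p under 0.05. Most points lie within 0.5 of 0, while Ndufa4l2, Cox6a2 and Cox8b of complex IV lie far out, and most E14.5 over E12.5 points lie above 0.

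Cox7a2l, counted here with complex IV, had 59.9 CPM at E14.5, against 35.2 CPM at E12.5, a log2 change of 0.90 ± 0.18. Atp5e, the epsilon subunit of the catalytic head of complex V, had 109 CPM at E14.5, against 65.8 CPM at E12.5, a log2 change of 0.86 ± 0.16 (edgeR adjusted p = 0.0051). Both had their highest skin E level at E14.5. Uqcr11 and Uqcr10, small subunits of complex III, rose by 0.75 and 0.73, and Ndufa7, Ndufb11, Ndufa6 and Ndufa13, accessory subunits of complex I, by 0.64, 0.64, 0.61 and 0.43 on the log2 scale. Atp5b had 1383 CPM at E14.5, against 997 CPM at E12.5, and Atp5d, the delta subunit, 177 CPM against 130 CPM. Cox7c, Cox8a and Atp5j2 and the restricted isoforms Cox6a2 and Ndufa4l2 made up the rest of the calls. The median log2 CPM change over this interval was 0.20 in ES and 0.20 in E, and 57 of 74 members were positive in ES against 59 of 74 in E.

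Over the whole interval calls went both ways. At E14.5 over E9.5 in skin E 14 members were called, 12 higher and 2 lower, against 46.6% of all genes, and with the block 36, against 59.7% of all genes. With library totals alone 11 were higher and 5 lower. Beside the restricted isoforms, Atp5e, Cox7a2l, Ndufb11, Ndufa6, Ndufv3, Ndufs8, Uqcr10 and Ndufa3 rose, by log2 changes of 0.52 to 1.05. Ndufs8 and Ndufa3 rose here and fell with the labelled age in the AGM. The difference between the tissues' changes was tested for E10.5 over E9.5 only. Cox5a had 42.8 CPM at E14.5, against 70.1 CPM at E9.5, and fell by 0.63 ± 0.19 on the log2 scale, while Atp5l was called lower at 1.97 CPM against 4.52 CPM. The mitochondrially encoded mt-Nd1, mt-Nd2, mt-Nd4, mt-Nd5 and mt-Nd6 fell over the same interval. Of the other 8 such subunits 6 were at most 0.100 CPM in every skin E library and could not be read in either direction.

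Restricted isoforms of complex IV showed the largest log2 changes among the members tested in skin E. Ndufa4l2 had 0.953, 1.06, 0.792 and 28.4 CPM in skin E from the youngest to the oldest age, so that 1 library stands alone. At E14.5 over E12.5 its log2 change was 5.29 ± 0.29 (edgeR adjusted p = 1.77e-05). Its share of the Ndufa4 pair was 28.5% of RPKM at E14.5 and at most 1.2% at the younger skin E ages. Ndufa4 itself had 89.7 CPM at E14.5 and 93.6 CPM at E12.5. In skin ES the 4 libraries together held 1 count of Ndufa4l2, against 696 counts in skin E, a ratio of 0.00284 in CPM with a 95% counting interval from 7.17e-05 to 0.0159. Of 7 pericyte markers tested, 4 rose at E14.5 over E12.5, and the list summed to 657 CPM at E14.5, against 529 CPM at E12.5; Kcnj8 had 23.8 CPM against 3.999 CPM. In skin ES the list summed to 406 to 534 CPM, within the 292 to 657 CPM of skin E, with Kcnj8 at most 0.142 CPM. Of 6 pericyte markers tested in ES over E, 2 were higher, 2 lower and 2 not called. Their part in the result was not tested.

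Cox6a2 had 0.100, 0.132, 3.50 and 14.3 CPM in skin E from the youngest to the oldest age, from 2, 3, 84 and 319 counts. At E12.5 over E10.5 the ratio of CPM was 26.5 with a 95% counting interval from 8.76 to 131, and edgeR gave a log2 change of 4.62 ± 0.73 (adjusted p = 0.0022). At E14.5 over E12.5 the log2 change was 2.16 ± 0.46 (edgeR adjusted p = 0.0097). Cox6a2 was at most 0.225% of the Cox6a RPKM in AGM, 3.93% in skin E at E12.5 and 12.01% at E14.5, while Cox6a1 stayed between 88.3 and 112 CPM in skin E. No skin ES library held a count of Cox6a2, which places skin ES at least 68.9-fold lower than skin E on a floor of 3 counts over the group.

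Cox8b was also highest at E14.5, at lower levels. It had 0.050, 0.044, 0.708 and 2.51 CPM in skin E at the 4 ages, from 1, 1, 17 and 56 counts, and none in skin ES. At E12.5 over E10.5 the ratio of CPM was 16.1 with a 95% counting interval from 2.52 to 672, and edgeR called it (adjusted p = 0.049). Cox8b reached 4.57% of the Cox8 RPKM at E14.5, and Cox8a, its partner, had 90.1 CPM at E14.5, against 70.6 CPM at E12.5. Striated muscle markers moved with both isoforms. Of 15 markers 14 rose at E12.5 over E10.5, 9 rose and 1 fell at E14.5 over E12.5, and their sum was 192, 420, 2391 and 5237 CPM at the 4 ages. In skin ES the sum was 89.4 to 214 CPM, and Myog, Myod1, Ckm and Tnnc2 had no count in any of its libraries. In AGM the sum was 99.6 to 564 CPM. Their part in the result was not tested. At E14.5 the keratinocyte and dermal fibroblast lists were also at their highest in skin E, at 5100 and 32820 CPM.

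Cox6b2 and Cox7a1 had other profiles. Cox6b2 had 3.21, 4.18, 7.46 and 7.52 CPM in skin E from the youngest to the oldest age and was called at E14.5 over E9.5, at a log2 change of 1.31 ± 0.32 (edgeR adjusted p = 0.0098). In AGM it had 10.4 and 7.85 CPM at E9.5, 8.97 and 7.05 CPM at E10.5 and 4.67 and 5.06 CPM at E11.5. Cox6b2 thus rose with age in skin E and fell with the labelled age in AGM. Cox7a1 had at most 0.907 CPM in any library and was called in no comparison by edgeR without the block. Cox7b2 had at most 4 counts in a library, and Cox8c had none, so neither was tested.

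**Figure D3:**
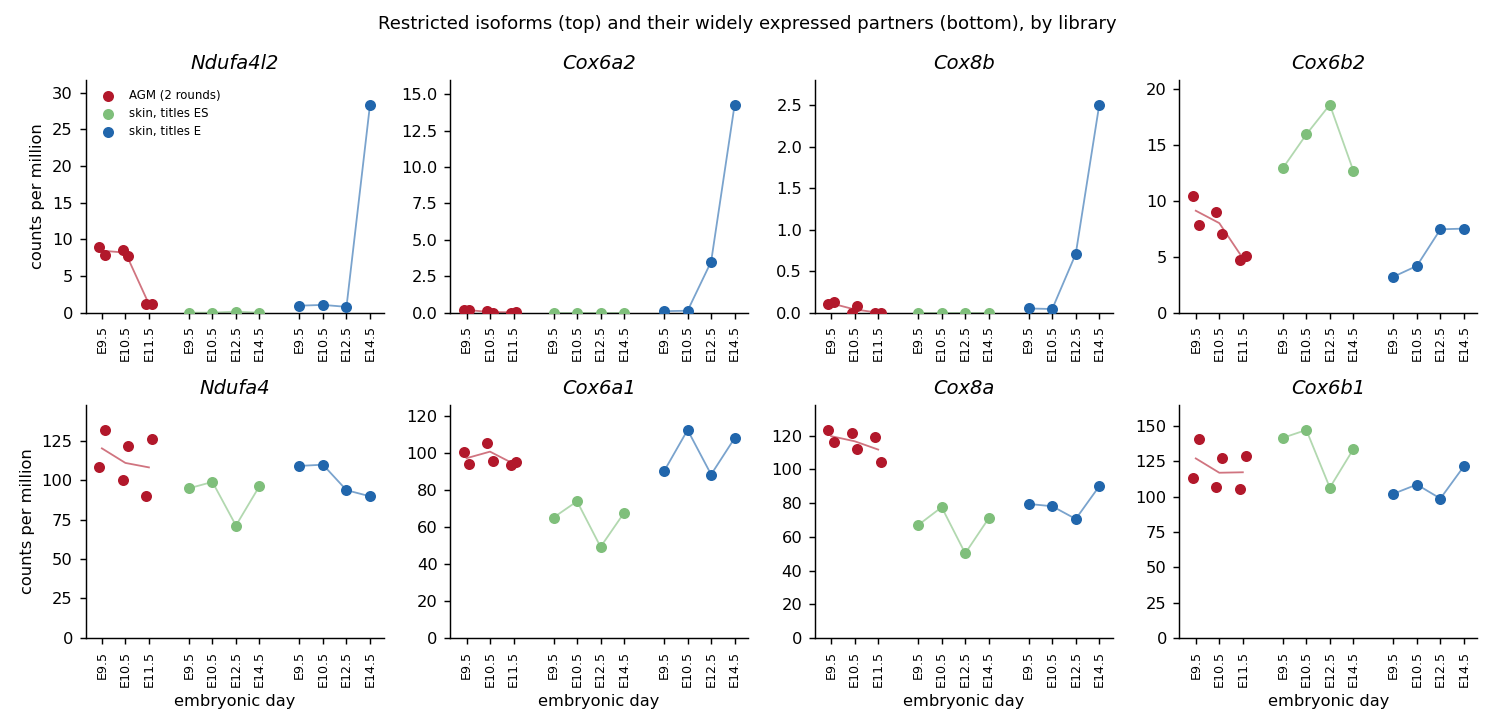
CPM (vertical axes) of 4 restricted isoforms (top row) and their widely expressed paralogues (bottom row) in each library by embryonic day (horizontal axes). Points are single libraries and lines join the means of an age; Ndufa4l2, Cox6a2 and Cox8b are highest in skin E at E14.5, at 28.4, 14.3 and 2.51 CPM, while the paralogues below stay between 49.2 and 147 CPM.

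Genes with the profile most like that of each restricted isoform were taken by Pearson's r of log2(CPM + 1) over the 10 AGM and skin E libraries, as a description. For Cox6a2 they were Tnmd, Barx2, Krt15, Krt14 and Adam33, with r of 0.996 to 0.997. For Cox8b they were Cpa3, Nectin4, Gm37176, Nrap and C1qtnf2, with r of 0.993 to 0.998. For Ndufa4l2 they were Parp4, Tmem161a, Junb, BC026585 and Mal2, with r of 0.969 to 0.985. All points share the same 10 libraries, and Cox6a2 and Cox8b have their highest level in 1 of them, skin E at E14.5.

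The second question was how AGM and skin of the same age differ, for which skin E served as the skin side. No sequencing project holds both tissues, so tissue and project cannot be told apart. At E9.5, 20 of 79 members were called, 17 higher and 3 lower in AGM, against 33.9% of all genes called and 18.0% called higher. At E10.5, 18 were called, 17 higher and 1 lower, against 24% of all genes called and 11.7% called higher. The members' median log2 difference was only 0.13 at E9.5 and 0.095 at E10.5, against 0.041 and 0.014 for all genes. With the round as a block 41 and 34 members were called, against 51.3% and 42.6% of all genes. Leaving out any 1 of the 6 AGM libraries gave 13 to 17 higher and 1 lower at E9.5. Cell type lists also differed: at E9.5 10 of 10 red blood cell, 12 of 12 macrophage and 5 of 7 pericyte markers were higher in AGM, and at E10.5 10 of 10 neuron markers were lower. Their part in the members' differences was not tested.

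Atp5g2, a c-ring gene of complex V, had the largest difference of the members tested at both ages. It had 33.2 and 30.3 CPM in AGM at E9.5, against 1.91 CPM in skin E, a log2 difference of 4.003 ± 0.27 (edgeR adjusted p = 3.82e-05). At E10.5 it had 36.1 and 31.3 CPM in AGM, against 0.924 CPM in skin E. Atp5g1 had 55.2 and 52.2 CPM in AGM at E9.5, against 6.82 CPM in skin E, a log2 difference of 2.92 ± 0.15. Atp5g1, Atp5g2 and Atp5g3 encode the same mature c subunit. Atp5g3 had 238 and 214 CPM in AGM at E9.5, against 288 CPM in skin E, a log2 difference of -0.40 ± 0.13 (edgeR adjusted p = 0.044), which was not called when any 1 of the 6 AGM libraries was left out. The 3 genes together summed to 327 and 296 CPM in AGM at E9.5, against 296 CPM in skin E. Atp5g3 held 76.2% to 77.9% of their RPKM in AGM, 83.2% to 92.9% in skin ES and 97.8% to 98.7% in skin E. Of the coding 50-base stretches, 99.7% in Atp5g1 and 100% in Atp5g2 also occur in other genes, against 0% in Atp5g3. The levels of Atp5g1 and Atp5g2, and these shares, are therefore uncertain.

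Other complexes held large differences too. Cox7c had 54.3 CPM in both AGM libraries at E9.5, against 8.53 CPM in skin E, a log2 difference of 2.62 ± 0.17. Uqcrb, a subunit near the quinone site of complex III, had 47.5 and 63.8 CPM in AGM at E9.5, against 18.2 CPM in skin E, a log2 difference of 1.56 ± 0.25. Atp5h, Ndufs5, Cox5b and Cox7a2l were higher in AGM by log2 differences of 1.41, 1.14, 1.10 and 1.05 at E9.5. Like Cox7c and Uqcrb, these members share 50% or more of their coding 50-base stretches with other genes, so their levels are uncertain. Uqcrq and Uqcrfs1 of complex III were called lower in AGM at E9.5, by log2 differences of -0.50 and -0.39, and Uqcrfs1 was called lower at E10.5 too, with 100 and 96.4 CPM in AGM against 130 CPM in skin E. Uqcrq was not called without the first-round E9.5 library. Uqcrfs1 was not called at E9.5 without any 1 of the other 5 AGM libraries, nor at E10.5 without any 1 of the E10.5 or E11.5 libraries. Complex II had no call at either age. Ndufa4l2, with no coding stretch in another gene, had 8.97 and 7.93 CPM in AGM at E9.5, against 0.953 CPM in skin E, a log2 difference of 3.09 ± 0.27.

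Of the 17 members called higher at E9.5, 9 share 50% or more of their coding stretches with other genes. For each member the share of its coding 50-base stretches that also occur in another GENCODE gene was computed. It was 50% or more for 14 members and 0% for 40. The 14 were Atp5f1, Atp5g1, Atp5g2, Atp5h, Atp5l, Cox5b, Cox6c, Cox7a2l, Cox7c, Ndufa12, Ndufb2, Ndufb4, Ndufs5 and Uqcrb. Levels given for them in any comparison are uncertain. Of the 14, 9 were called higher and none lower at E9.5, with a median log2 difference of 1.07, and at E10.5 10 were called higher and none lower, with a median of 1.22. Of the 38 tested members at 0%, 3 were called higher and 3 lower at E9.5, with a median of -0.061, and at E10.5 3 higher and 1 lower, with a median of -0.064. The 27 members between had medians of 0.18 and 0.17. Spearman's rho of the share and the difference over the 79 members was 0.577 at E9.5 and 0.625 at E10.5, where the points share libraries. For the age change E11.5 over E9.5 in AGM rho was 0.035, and for E14.5 over E12.5 in skin E 0.026. Leaving the 14 out, 11 members at E9.5 (8 higher, 3 lower) and 8 at E10.5 (7 higher, 1 lower) were called.

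**Figure D4:**
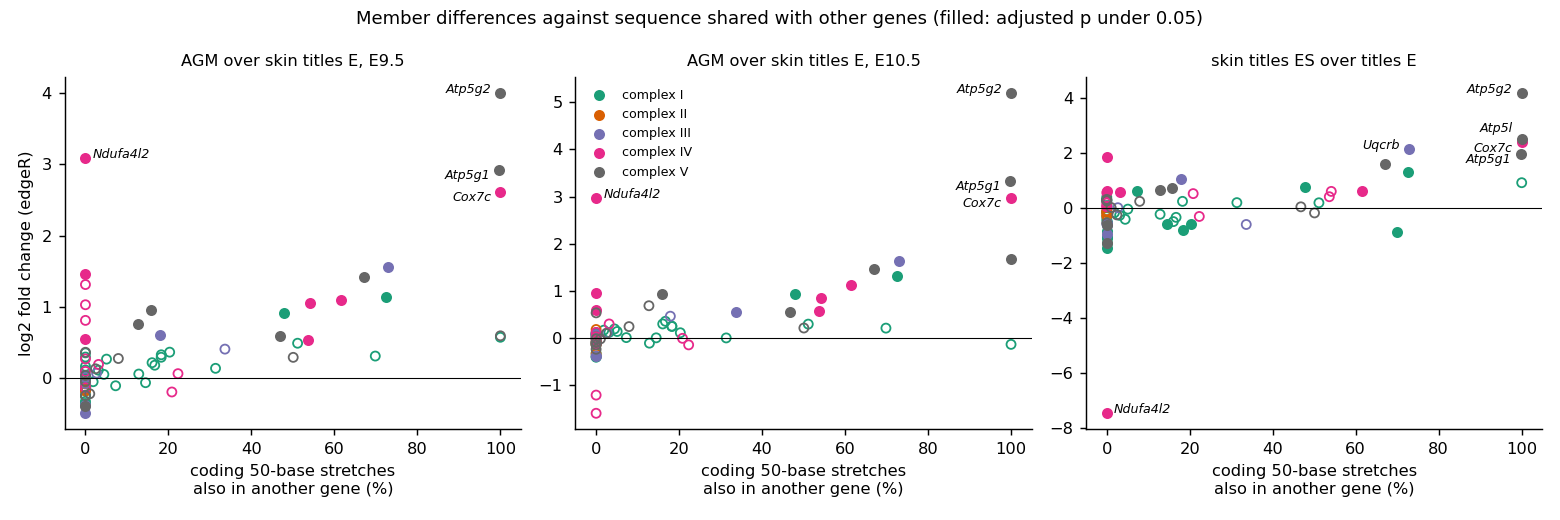
Log2 fold change of each tested member (vertical axes) against the percent of its coding 50-base stretches found in another gene (horizontal axes), for AGM over skin E at E9.5 and E10.5 and for skin ES over skin E, with filled points for an edgeR adjusted p under 0.05. Members at 50% or more lie mostly above 0, with Atp5g2 highest at 4.003, 5.19 and 4.16, while Ndufa4l2 at 0% stands apart at 3.09, 2.96 and -7.47.

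Some genes outside the members, named here only as examples, also differed widely between library sets. The median log2 difference of the 15 glycolysis genes in AGM over skin E at E9.5 was -0.057. Gapdh, a glycolytic enzyme with many processed pseudogenes in mouse, had 880 and 1013 CPM in AGM at E9.5, 264 CPM in skin ES and 54.7 CPM in skin E, and 8.62 CPM in skin E at E12.5. Cycs, the somatic cytochrome c, had 38.7 to 90.1 CPM in AGM, 29.98 to 55.1 CPM in skin ES and 3.09 to 4.77 CPM in skin E. The mitochondrially encoded mt-Co2, a catalytic subunit of complex IV, was listed at 0 in all 4 skin E libraries, at 0.677 to 3.76 CPM in AGM and at 29.8 to 43.8 CPM in skin ES. By contrast mt-Co1, the other catalytic subunit, had 5126 to 8819 CPM in AGM and 1759 to 3058 CPM in skin E. The sources used here do not say how reads with several matches were counted, and its part in the result was not tested.

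Whether the step from E9.5 to E10.5 differed between the tissues was tested directly as the AGM change minus the skin E change. EdgeR called no member, with 4 at an unadjusted p under 0.05 (Atp5g2, Atp5l, Atp5e and Cox7a1) and none called by DESeq2, against 7.67% of all genes. With the round as a block 5 were called, Atp5g2, Atp5l and Sdhd with a more positive change in AGM and Atp5e and Cox7a1 with a more negative one, against 25.8% of all genes. Of the 79 members 71 had a difference of less than 0.5 on the log2 scale.

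The last comparison set skin ES over skin E across the 4 shared ages, with age as a term. It shows how far 2 sets of libraries with the same tissue label differ, on 16588 genes and 77 members. Of the members 33 were called, 16 higher and 17 lower in ES, which is 42.9%, against 58.8% of all genes called, 29.5% higher and 29.3% lower. The members' median was 0.00093 and that of all genes -0.011. With library totals alone in place of TMM, where the median of all genes is -0.35, the split was 9 higher and 35 lower of 44. Without the E9.5 libraries 19 were called and without those of E10.5 18. In CPM, which has no TMM scaling, every ES library was above every E library for 12 members and below for 39. The same count over all genes was not made, so these counts are not read as a trait of the members.

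Calls are given by complex, beside 29.3% of all genes called lower and 29.5% called higher in ES. Complex I had 11 of 35 members lower and 3 higher in ES, while complex IV had 5 higher and 1 lower of 14 and complex V 6 higher and 2 lower of 16. Ndufs7, an iron-sulphur subunit of complex I, had 9.98, 15.5, 12.7 and 12.2 CPM in ES at the 4 ages, against 42.7, 41.9, 40.5 and 47.4 CPM in E. No ES value overlaps the E values, and the log2 difference was -1.46 ± 0.21 (edgeR adjusted p = 0.0023). Ndufb7, Atp5d, Ndufc2, Ndufa2 and Uqcrfs1 were lower by log2 differences of -1.29, -1.27, -1.11, -1.06 and -0.96, and Atp5a1 had 500 to 562 CPM in ES against 963 to 1109 CPM in E. On the higher side Atp5g2 had 14.7, 19.2, 16.1 and 15.9 CPM in ES, against 1.91, 0.924, 1.08 and 0.895 CPM in E, a log2 difference of 4.16 ± 0.38. Atp5l, Cox7c and Uqcrb followed at 2.48, 2.37 and 2.15. Of the 14 members with 50% or more shared coding stretches 8 were higher and 1 lower, with a median of 1.10, and of 36 tested members with none 2 were higher and 13 lower, with a median of -0.27. Cox6b2, with no shared stretch, had 12.7 to 18.6 CPM in ES against 3.21 to 7.52 CPM in E.

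**Figure D5:**
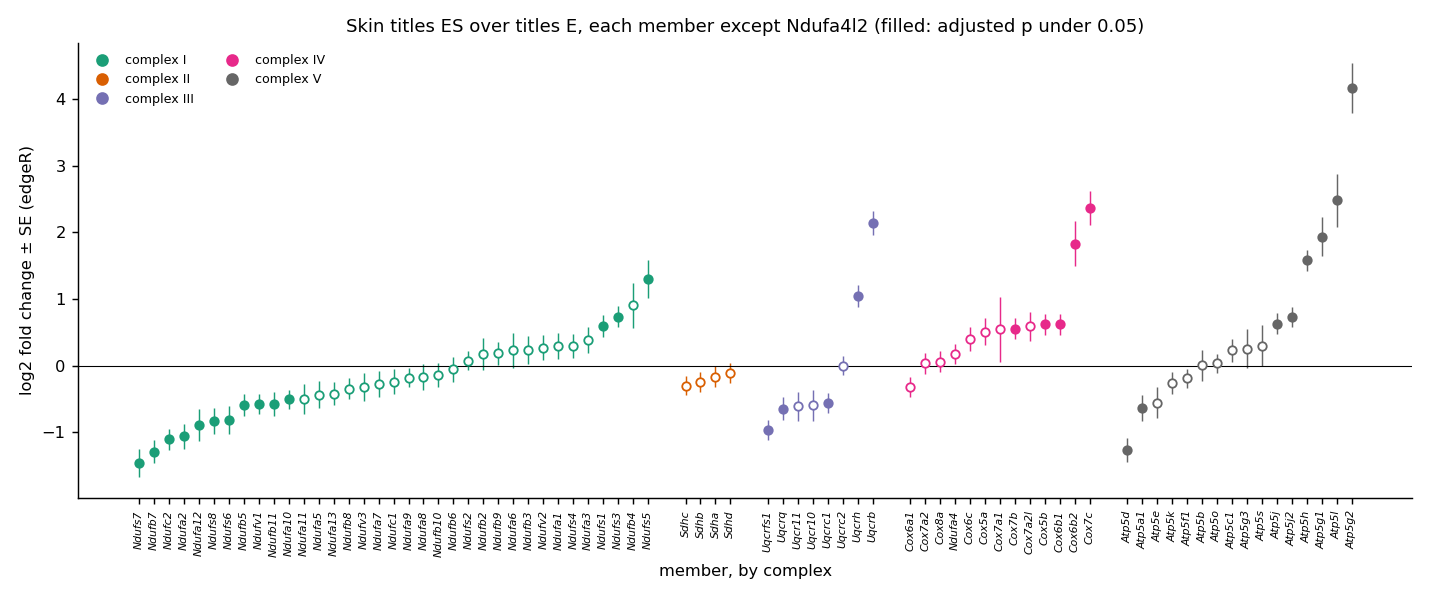
Log2 fold change of skin ES over skin E with its standard error (vertical axis) for each tested member except Ndufa4l2, ordered within each complex (horizontal axis), with filled points for an edgeR adjusted p under 0.05. Values run from -1.46 for Ndufs7 to 4.16 for Atp5g2, and 16 members are called higher.

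Some copies of these members also differed in level between the library sets. Gm2962, a processed pseudogene of Uqcrb with 98.2% identity to its coding sequence, averaged 0.143 CPM in AGM, 14.8 CPM in skin ES and 0.022 CPM in skin E. Gm12338, the identical copy of the Cox7c coding sequence, averaged 1.05 CPM in AGM, 1.43 CPM in skin ES and 0 CPM in skin E. Gm10012 averaged 0.065 CPM in AGM, 0.418 CPM in skin ES and 0.070 CPM in skin E. The further copies Gm20091, Gm5457 and Gm19326 averaged at most 0.073 CPM in each set. Other lists are given beside 29.3% of all genes called lower and 29.5% called higher in ES. Of 13 mitochondrially encoded subunits 12 were higher in ES, 6 of the 13 being at most 0.100 CPM in every skin E library. Of 41 assembly factors 12 were lower, near the share of all genes, and 4 higher. Of 13 biogenesis regulators 9 were lower and 1 higher. All 12 cell cycle genes were lower in ES, and their part in the members' differences was not tested.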

How the data were processed

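Gene counts of 14 polyA libraries were used as deposited. Per the submitters' processing notes, the tools included Trimmomatic 0.36, STAR 2.5.0a, featureCounts 1.6.0 and DESeq2 1.20.0, on GRCm38 (mm10), with settings not given there. The deposited counts held 0 columns of other samples. Members and gene lists were chosen with earlier results of these data known. Named members were those of fixed isoform and core lists, the extremes among calls and the extremes in RPKM of each complex; other called members were named after their values were seen.

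Tests used edgeR 4.0.16 in R 4.3.3 (filterByExpr, TMM, quasi-likelihood F-test, Benjamini-Hochberg over all genes, threshold 0.05), fitted on 6 AGM libraries, on 10 AGM and skin E libraries, and on 8 skin libraries with age as a term; each fit left 3 residual degrees of freedom. Alternatives included DESeq2 1.42.0, a round block and library totals. Round numbers paired the AGM libraries: deviations of same-numbered libraries correlated at 0.605, 0.429 and 0.523 over 15747 genes. CPM used total counts; RPKM used exon lengths from GENCODE M21, because the table's length column could not be used as planned. The procedure was tested on simulated data. Intervals on low counts are exact and cover counting error only.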

Additional observations from a re-analysis of the deposited data

How the results depend on the processing

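Of 1460 alternative values for 120 member results, 1154 kept their direction and side of the threshold, 298 kept their direction but missed the threshold, and 8 reversed. All 8 came from a fit of all 14 libraries with the skin projects as replicates: Atp5g1 in skin E12.5 over E10.5 (-0.50), Atp5l in skin E14.5 over E9.5 (0.028), Uqcrfs1 (0.11), Cox6b2 (-0.061) and Uqcrh (-0.090) in AGM over skin at E9.5, and Uqcrfs1 (0.054), Atp5l (-0.24) and Cox6b2 (-0.55) at E10.5, on the log2 scale. That fit called 0 members in AGM E11.5 over E10.5 and over E9.5, skin E12.5 over E10.5, E14.5 over E12.5 and E14.5 over E9.5, and AGM over skin at both ages; its biological coefficient of variation was 81.5%, against 12.1% for the 10 libraries. With the replicate block the calls were 5, 21 and 36 in the AGM comparisons E10.5 over E9.5, E11.5 over E10.5 and E11.5 over E9.5, then 4, 37, 52 and 36 in skin, 41 and 34 in AGM over skin, and 5 for the difference of changes. DESeq2 called 1 member in AGM E11.5 over E10.5 and 4 in skin E12.5 over E10.5, where the fit without a low-count filter called 5. Library totals alone gave 8 in skin E14.5 over E12.5. Without members sharing 50% or more of their coding stretches, 11 and 8 were called in AGM over skin at E9.5 and E10.5; this and library totals were chosen after seeing the data. Leaving out 1 library gave 1 to 2 calls in AGM E11.5 over E10.5, 2 to 6 in AGM E11.5 over E9.5 and 5 to 6 in skin E12.5 over E10.5; leaving out 1 age gave 18 to 29 in ES over E. The cause of these shifts was not tested. Cox8b, Cox6a2 and Cox7a1 are limited by low counts.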
